A study of Mus musculus with 4 samples.

Results

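The alpha-ketoglutarate-dependent dioxygenases examined here are 41 genes given as a list by symbol, covering TET, Jumonji, hydroxylase and AlkB enzymes. All 41 were found among the 55401 genes of the deposited tables, and all 41 had enough counts to be tested, out of 16751 tested genes. They were sorted by known activity into 8 classes. RNA came from mouse optic nerves in 2 Dor WT libraries and 2 libraries of a conditional knockout, Dor cKO, and the study's title places its question in alpha-ketoglutarate metabolism of mature oligodendrocytes and in myelination. Strain, sex, age, any treatment, the number of animals behind a library and the driver that limits the deletion to some cells are not given in the sources used here, for either group. Only the Dor WT tables have names with a tag that looks like an age, so genotype and whatever that tag stands for cannot be told apart.

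These enzymes use molecular oxygen and alpha-ketoglutarate, an intermediate of the tricarboxylic acid cycle, to oxidise a substrate, and they release succinate and carbon dioxide. Iron sits in the active site and ascorbate keeps it reduced, while succinate, fumarate and related acids can compete with alpha-ketoglutarate. The family hydroxylates collagen in the endoplasmic reticulum, marks hypoxia-inducible factor (HIF) subunits for destruction when oxygen is present, and removes methyl groups from histones, DNA and RNA. In oligodendrocytes it is known mostly for the TET and Jumonji members that act on chromatin during differentiation.

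Totals ran from 17263830 to 21595832 counts a library, so that 3 counts correspond to 0.139 to 0.174 CPM, the unit of counts scaled to library size, on totals before TMM scaling. CPM values of genes use TMM-scaled totals. Mean fragment length was 259.6 and 260.0 bases in Dor WT against 245.5 and 245.3 in Dor cKO. It thus split by group, and whatever lies behind it cannot be told apart from genotype. Trp53inp2, a gene known as Dor, had 138 and 134 CPM in Dor WT against 105 and 107 CPM in Dor cKO, and Oprd1, which shares that synonym, had at most 5 counts. Such counts over a whole gene and a whole tissue are no check of a deletion in part of the cells or exons. Markers of myelinating oligodendrocytes were abundant in all libraries, and all 12 fell, from a summed TPM (a level per length, scaled to the same total in each library) of 24736 to 24959 in Dor WT to 14142 to 14203 in Dor cKO. In such bulk tissue, fewer cells of a type and less RNA per cell cannot be told apart. Xist had 574 CPM in each Dor WT library and 262 and 273 in Dor cKO, and the Y-linked genes Kdm5d and Uty moved the opposite way, as given further on.

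Of the 41 genes, 8 rose, 1 fell and 32 did not pass the threshold, an edgeR adjusted p under 0.05 over all tested genes. That is 21.95% of the family, beside 27.7% of all tested genes, of which 14.3% were higher and 13.4% lower. The family's median log2 fold change was 0.06, against -0.00 over all tested genes, and the values ran from -0.32 to 0.48. Both Dor cKO libraries lay above both Dor WT libraries for 22 members and below them for 7, while 12 overlapped. Among all tested genes 30.2% lay above and 30.5% below, or 60.8% either way. The 8 rises comprised 4 collagen prolyl hydroxylases, 1 lysyl hydroxylase, 1 HIF prolyl hydroxylase, Asph and Phf2, and the fall was Kdm6b. Of the 32 members not called, 24 had a 95% interval of the fold change that stayed within 1.25-fold in either direction. With 2 libraries a group, and no label that says they came from separate animals, these p-values measure only the spread between the libraries, which may be technical.

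**Figure D1:**
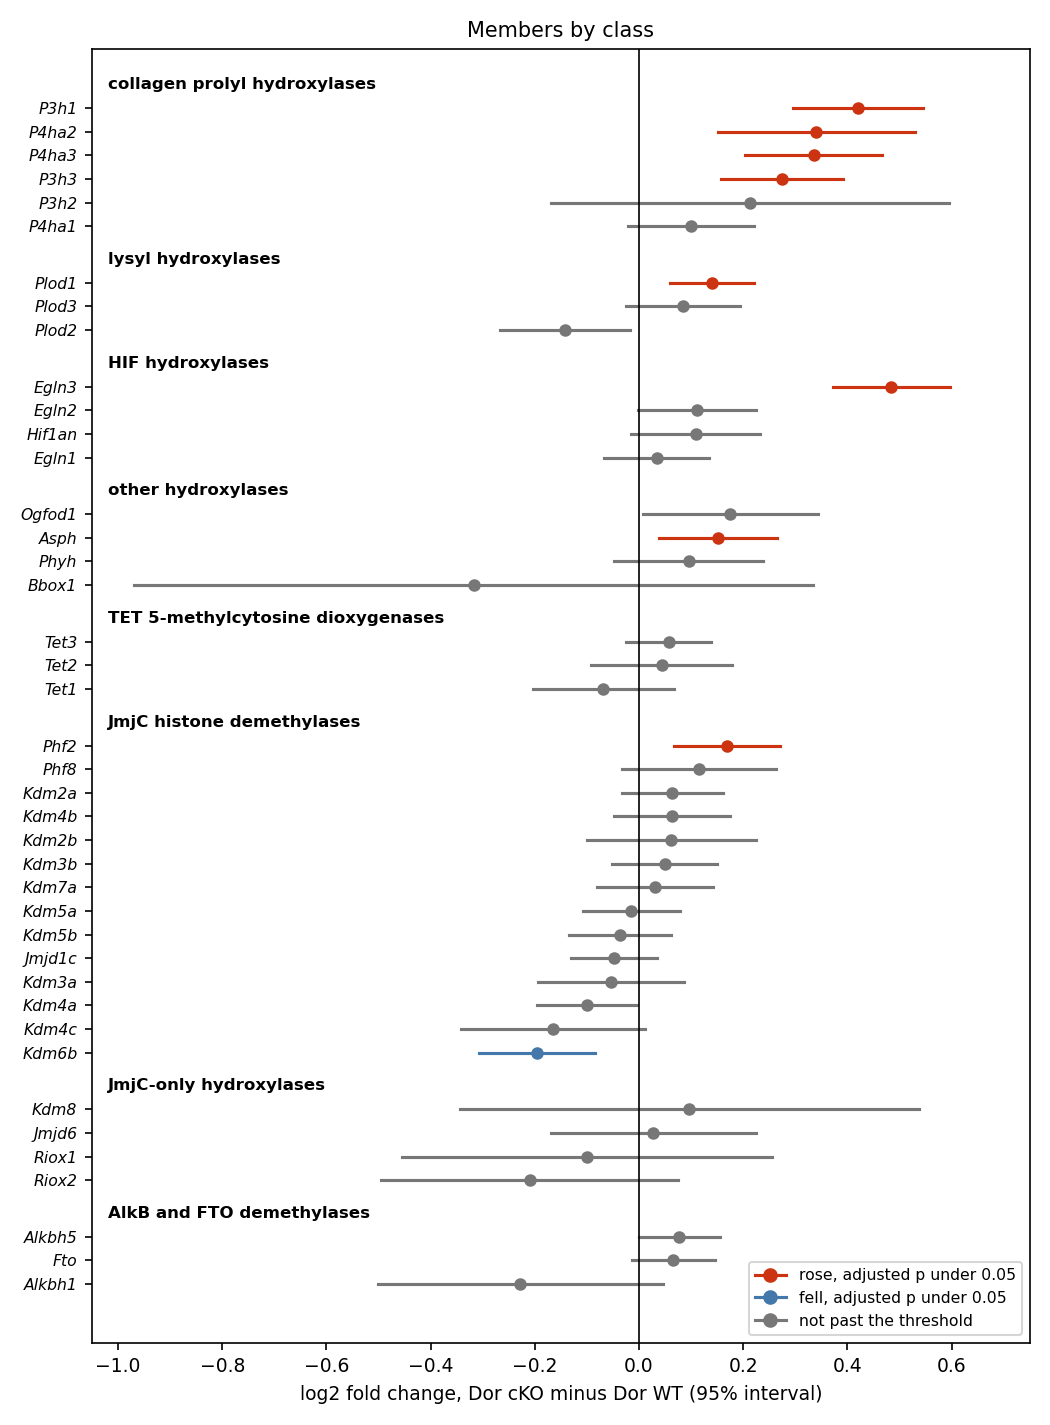
Log2 fold change of each of the 41 genes, Dor cKO minus Dor WT, on the horizontal axis, with the 95% interval as a bar; genes are grouped by class and coloured by call. The points to the right are Egln3 at 0.48 and 4 collagen prolyl hydroxylases, and most chromatin and RNA enzymes sit close to 0.

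Levels per length differed widely between the genes. Mean TPM over the 4 libraries ran from 2.25 for Bbox1 to 66.7 for Plod1, with a median of 22.8. After Plod1 came Fto at 59.5, Egln2 at 58.3 and Phyh at 57.2 TPM, so the leading places went to a collagen lysyl hydroxylase, an RNA demethylase, a HIF prolyl hydroxylase and an enzyme of fatty acid breakdown. Fto, Egln2 and Phyh were not separated, since single libraries gave 56.5 to 60.6 TPM for Fto, 54.3 to 60.0 for Egln2 and 53.0 to 60.3 for Phyh. The next place was P3h3 at 42.2 TPM, with libraries from 39.8 to 44.5. Kdm4a had the highest mean of the JmjC demethylases at 29.7 TPM but was not separated from Jmjd1c at 29.6 TPM, which was higher in Dor WT 1 and Dor cKO 2. Tet3 led its class at 16.2 TPM.

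**Figure D2:**
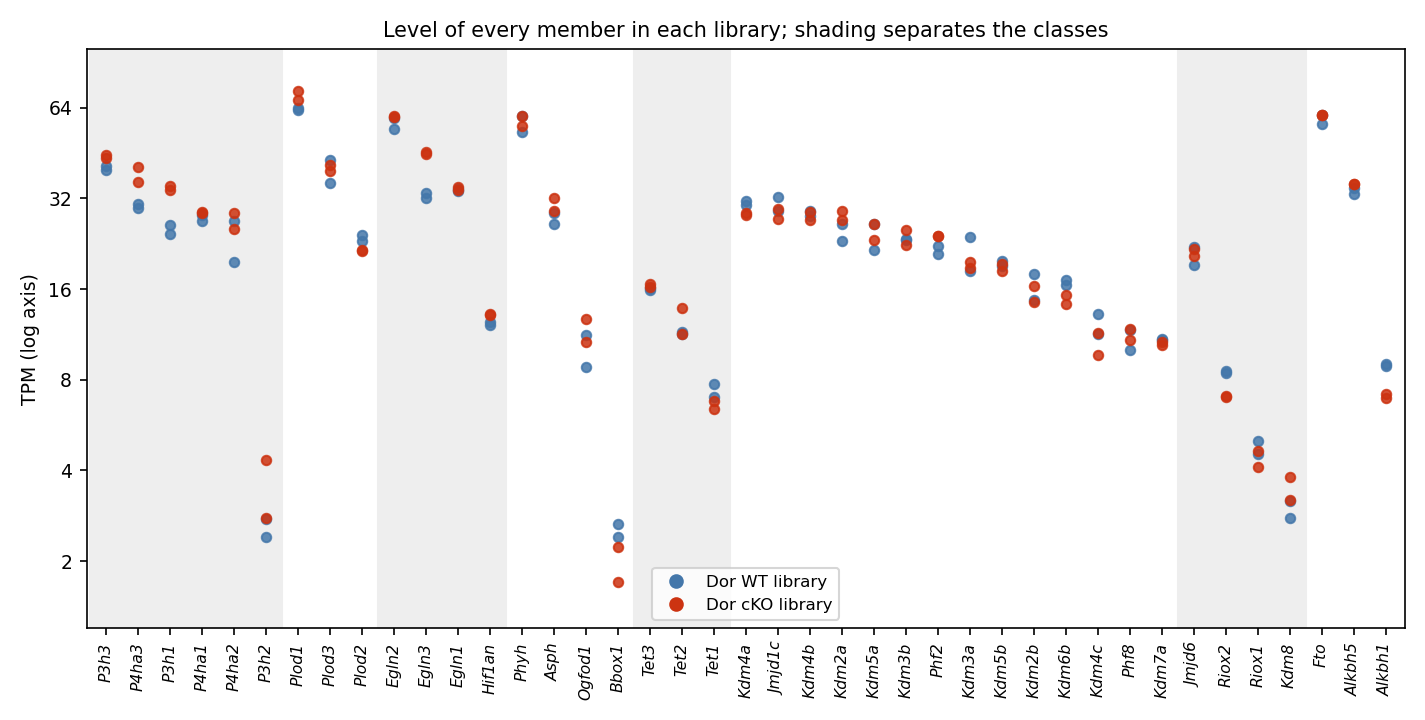
TPM of each gene in each library on a log axis, Dor WT and Dor cKO in separate colours, ordered by mean level within class. Levels run from about 2 TPM for Bbox1 to over 60 TPM for Plod1, and the groups' points lie close together for most genes.

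The upstream sequences of Egln3 and of 5 collagen prolyl hydroxylases are shown because these genes carry most of the rises, with P4ha1 as the class member that is also abundant and did not pass. HIF binds DNA at a short core, searched here as the letters ACGTG and GCGTG on both strands in the 250 bases before the RefSeq start (build GRCm38.p6). Overlapping matches were counted separately. A match is marked in capitals and only describes the letters. The printed stretches, 5′ to 3′ along the gene's strand, are chr12:54203875-54204124 on the minus strand for Egln3, and, on the plus strand, chr4:119232713-119232914 for P3h1, chr7:100285270-100285519 for P4ha3, chr11:54100674-54100923 for P4ha2 and chr10:59323046-59323295 for P4ha1. That of P3h3 is chr6:124857753-124857967 on the minus strand. Bases annotated as untranslated region were left out of the print, 48 for P3h1 and 35 for P3h3.
Egln3: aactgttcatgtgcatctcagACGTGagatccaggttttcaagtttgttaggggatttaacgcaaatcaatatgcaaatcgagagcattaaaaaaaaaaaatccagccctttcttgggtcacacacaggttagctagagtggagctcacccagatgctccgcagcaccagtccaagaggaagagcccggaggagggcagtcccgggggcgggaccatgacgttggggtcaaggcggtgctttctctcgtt
P3h1: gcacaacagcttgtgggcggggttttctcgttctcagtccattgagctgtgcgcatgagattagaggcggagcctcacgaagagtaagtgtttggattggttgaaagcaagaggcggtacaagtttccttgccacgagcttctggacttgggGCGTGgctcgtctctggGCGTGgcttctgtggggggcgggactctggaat
P4ha3: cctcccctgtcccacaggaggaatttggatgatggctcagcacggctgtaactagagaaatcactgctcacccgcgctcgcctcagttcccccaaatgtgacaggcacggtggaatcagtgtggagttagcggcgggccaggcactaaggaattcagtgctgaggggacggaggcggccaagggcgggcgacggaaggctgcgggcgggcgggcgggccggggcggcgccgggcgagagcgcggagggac
P4ha2: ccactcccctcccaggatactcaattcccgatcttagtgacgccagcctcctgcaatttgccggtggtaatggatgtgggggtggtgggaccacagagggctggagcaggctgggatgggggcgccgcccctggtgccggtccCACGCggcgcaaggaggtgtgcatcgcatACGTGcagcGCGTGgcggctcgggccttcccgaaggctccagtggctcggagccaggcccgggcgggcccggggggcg
P3h3: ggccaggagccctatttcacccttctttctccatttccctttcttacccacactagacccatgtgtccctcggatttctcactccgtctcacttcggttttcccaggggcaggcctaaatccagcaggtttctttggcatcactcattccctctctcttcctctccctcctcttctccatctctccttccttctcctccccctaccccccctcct
P4ha1: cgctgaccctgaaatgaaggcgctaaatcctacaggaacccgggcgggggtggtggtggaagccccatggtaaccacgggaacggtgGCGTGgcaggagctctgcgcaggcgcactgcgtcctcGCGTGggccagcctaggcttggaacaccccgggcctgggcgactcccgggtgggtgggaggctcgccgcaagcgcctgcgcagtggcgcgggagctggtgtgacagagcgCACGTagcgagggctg

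Egln3 had 1 match, whose first letter lay 229 bases before the start. P3h1 had 2, at 50 and 33 bases, P4ha2 had 3, at 107, 78 and 69 bases, and P4ha1 had 3, at 163, 126 and 16 bases. P4ha3 and P3h3 had none. A further RefSeq start of P3h1, not shown, had a window at chr4:119233579-119233828 with 2 matches of its own. The P4ha2 window lies within the annotated span of its gene, as the RefSeq start used is further along than the start of that span. Whether the letters bear on any change was not tested. The promoter table had an entry for 33 of the 41 genes. Of their 42 windows, 26 (61.9%) held at least 1 match, against 12679 of 32851 windows of all genes (38.6%). The median window of a family member held 17 CG pairs and that of all genes 6, and both motifs contain such a pair.

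Egln3 had the largest fold change of the 41 genes in the edgeR fit. It encodes a prolyl hydroxylase that marks HIF alpha subunits for degradation and is itself a target of HIF. Egln3 (ENSMUSG00000035105.5; GRCm38 chromosome 12, 54178981 to 54203860, minus strand) had 53.2 and 55.2 CPM in Dor WT against 75.1 and 76.8 CPM in Dor cKO. Both Dor cKO libraries were higher by far more than the libraries of a group differed. The log2 fold change was 0.48 (SE 0.05, 95% interval 0.37 to 0.60, edgeR adjusted p = 3.93e-08), or 1.40-fold. It was called in 16 of 16 alternative settings of the analysis, with log2 fold changes of 0.45 to 0.51. Egln3 thereby went from 24.2% and 24.0% of the summed TPM of the 4 HIF hydroxylases in Dor WT to 29.3% and 30.0% in Dor cKO. Of 8 astrocyte markers 6 rose and 1 fell, from a summed TPM of 7572 to 7588 in Dor WT to 8262 to 8273 in Dor cKO, and myelinating oligodendrocyte markers fell as given above, with none at 0 in either list. Their part in the Egln3 value was not tested.

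The other HIF hydroxylases did not pass the threshold. Egln2, the most abundant of them per length, had 66.0 and 73.4 CPM in Dor WT against 74.9 and 76.1 in Dor cKO (log2 fold change 0.11, adjusted p = 0.144). Egln1, regarded as the main oxygen sensor, had a log2 fold change of 0.03 (adjusted p = 0.672), and Hif1an, which hydroxylates an asparagine of HIF alpha, 0.11 (adjusted p = 0.198). Both Dor cKO libraries lay above Dor WT for all 4 genes, though only narrowly for Egln1. The same held for 30.2% of all tested genes. The Egln2 call depended on 1 library, since without Dor WT replicate 2 its log2 fold change was 0.20 with an adjusted p of 0.0159, the lowest of its alternatives, which reached 0.761. Summed TPM of the class was 132.8 and 139.1 in Dor WT against 152.9 and 152.5 in Dor cKO, a ratio of 1.12, and without Egln2 the ratio was 1.17. Without Egln3, left out after its values were seen, the sums were 100.7 and 105.7 TPM against 108.1 and 106.8 TPM, a ratio of 1.04.

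Genes around the HIF pathway moved both ways, as did all tested genes, of which 14.3% were higher and 13.4% lower. Of 15 pathway genes tested, 3 rose and 2 fell, with a median log2 fold change of 0.03. Hif1a, an oxygen-labile alpha subunit, had 124 and 122 CPM in Dor WT against 105 and 112 in Dor cKO and fell by 0.18 (SE 0.04, adjusted p = 1.53e-03). Epas1, the alpha subunit prominent in vessels, rose by 0.18 (SE 0.04, adjusted p = 1.10e-03), and Arnt2, a beta subunit family member, by 0.12 (adjusted p = 3.14e-03). Of the HIF target genes outside the dioxygenases, 6 of 22 rose and 2 fell, with a median of -0.00. Among those, Ndrg1, also known from myelinating glia, rose by 0.38 (SE 0.03), while the glycolytic gene Eno1 fell by 0.08 (SE 0.02). Of the 6 HIF targets among the dioxygenases, which include Egln3, 2 rose and 0 fell, with a median of 0.07. Any part of HIF activity in the Egln3 rise was not tested.

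The collagen prolyl hydroxylases rose in 4 of 6 members and fell in none by edgeR, with a median log2 fold change of 0.30. Shares over all tested genes were 14.3% higher and 13.4% lower. These enzymes of the endoplasmic reticulum act on procollagen chains: the P4ha genes encode catalytic subunits of the prolyl 4-hydroxylase that stabilises the triple helix, and the P3h genes encode prolyl 3-hydroxylases. P3h1 (ENSMUSG00000028641.16; chromosome 4, 119232915 to 119248975) had 47.1 and 50.0 CPM in Dor WT against 63.1 and 67.0 in Dor cKO. The groups were well apart, at 1.34-fold and a log2 fold change of 0.42 (SE 0.06, 95% interval 0.30 to 0.54, edgeR adjusted p = 2.50e-06). P3h3 (chromosome 6, 124841089 to 124857752) had 57.2 and 63.4 CPM in Dor WT against 73.7 and 72.4 in Dor cKO, with a log2 fold change of 0.27 (SE 0.06, adjusted p = 3.98e-04). Per length the change in P3h3 was smaller, from 39.80 and 41.02 TPM to 43.6 and 44.5 TPM, as the mean transcript length that RSEM assigned to it also went from 2341 and 2501 bases to 2681 and 2588.

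P4ha3 (chromosome 7, 100285520 to 100319699) had 44.0 and 42.8 CPM in Dor WT against 52.7 and 56.8 in Dor cKO, with a log2 fold change of 0.34 (SE 0.06, adjusted p = 1.45e-04). P4ha2 (chromosome 11, 54100095 to 54131665) had 25.6 and 21.1 CPM in Dor WT against 30.3 and 28.5 in Dor cKO, with a log2 fold change of 0.34 (SE 0.09, adjusted p = 5.42e-03). The Dor WT libraries of P4ha2 differed more from each other than those of P4ha3, and without Dor WT replicate 2 its log2 fold change was 0.20 (adjusted p = 0.153, in a range of 2.13e-04 to 0.487 over the alternatives). P4ha1, the widely expressed alpha subunit, had 54.8 and 53.6 CPM in Dor WT against 58.9 and 57.2 in Dor cKO and was not called (0.10, adjusted p = 0.231). P3h2, the least abundant of the class, had 5.76 and 5.02 CPM in Dor WT against 6.57 and 5.88 in Dor cKO (0.21, SE 0.19, adjusted p = 0.450). Neither of these was shown to be unchanged, and the interval of P3h2 is wide.

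Summed TPM of the collagen prolyl hydroxylases was 152.6 and 146.1 in Dor WT against 173.3 and 179.3 in Dor cKO, a ratio of 1.18. With 2 libraries against 2 an exact two-sided permutation test of such a sum cannot go below 0.333, which is the value it gave. P3h1 lost its call only when a biological coefficient of variation of 0.1 was assumed (adjusted p = 0.0524, against values down to 2.99e-11 in the other alternatives), whereas P4ha2 lost it in 6 of 16 alternative settings, P3h3 in 3 and P4ha3 in 3.

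**Figure D3:**
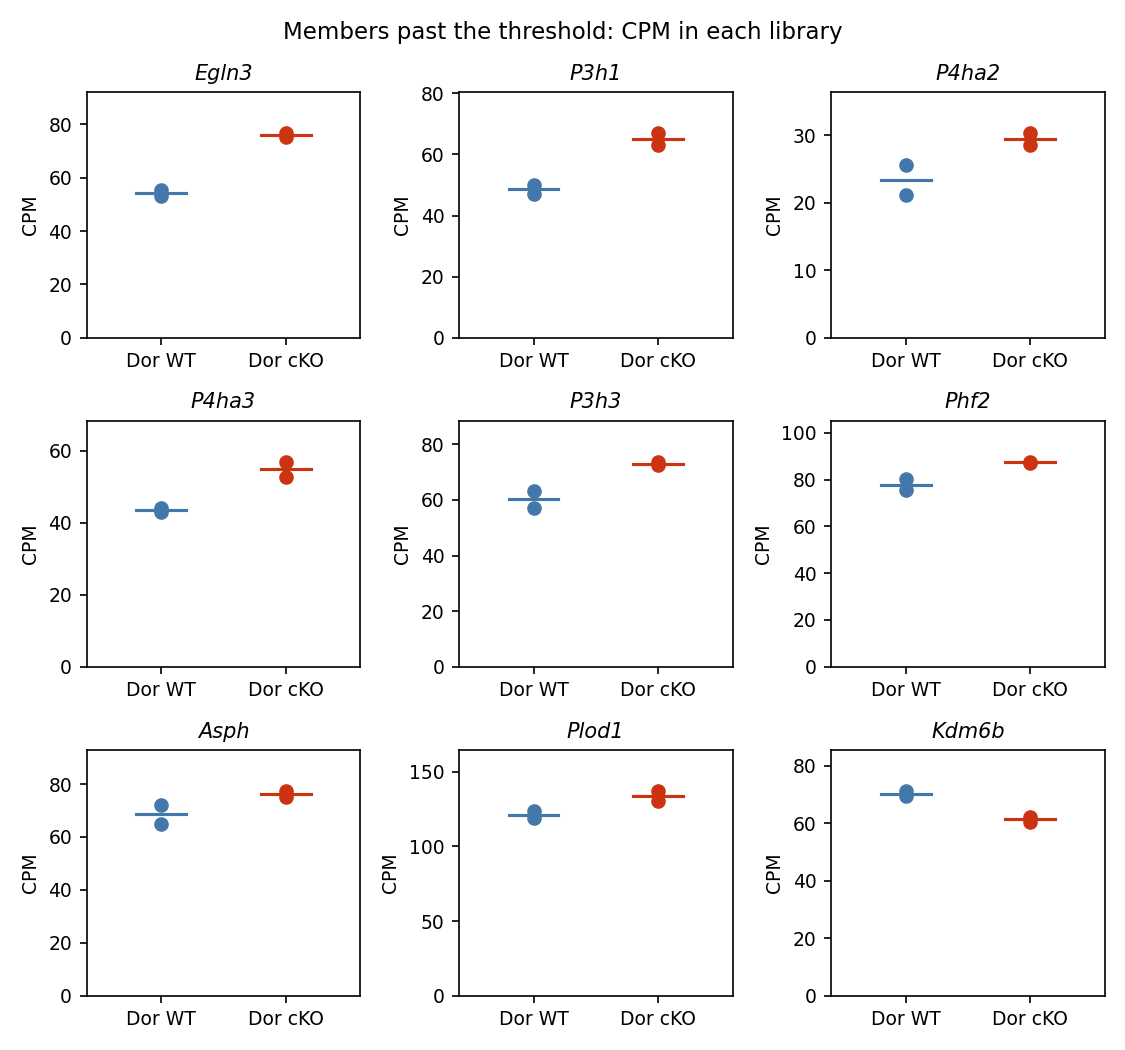
CPM of the 9 called genes in each of the 4 libraries, with a panel for each gene, with Dor WT on the left and Dor cKO on the right of each panel, bars at the group mean and the vertical axis starting at 0. Dor cKO lies above Dor WT in 8 panels and below it for Kdm6b, and the gap is widest for Egln3, from 53.2 and 55.2 to 75.1 and 76.8 CPM.

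The lysyl hydroxylases, which hydroxylate collagen lysines ahead of cross-linking and sugar attachment, held 1 called gene of 3, beside 27.7% of all tested genes. Plod1 (chromosome 4, 147909753 to 147936767) had 119 and 124 CPM in Dor WT against 131 and 137 in Dor cKO. Its libraries did not overlap, but the change was small, at a log2 fold change of 0.14 (SE 0.04, adjusted p = 7.26e-03), or 1.10-fold. Its adjusted p was 0.0541 when Dor WT replicate 1 was left out and 0.155 when Dor cKO replicate 2 was, and 1.84e-03 to 0.675 over all 16 alternatives. Plod2, which acts on the telopeptides of collagen, had 53.3 and 52.3 CPM in Dor WT against 47.8 and 47.9 in Dor cKO, a log2 fold change of -0.14 with a 95% interval of -0.27 to -0.02 that did not pass the adjusted threshold (adjusted p = 0.0878, unadjusted p = 0.0280). With total count scaling Plod2 passed as lower, at -0.16 and an adjusted p of 0.0479, in a range up to 0.683 over its alternatives. Plod3 had a log2 fold change of 0.08 (adjusted p = 0.273). The 3 genes thus did not share a direction, and their summed TPM, 128.6 and 123.8 in Dor WT against 128.7 and 135.4 in Dor cKO, had a ratio of 1.05.

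Most genes for collagens and for the proteins that fold them were higher alongside. Of 20 collagen genes, 12 rose and 4 fell, with a median log2 fold change of 0.17. Their values ran from -0.62 to 0.44, so the largest change was a fall. Among all tested genes 14.3% were higher and 13.4% lower. Of 20 genes for collagen folding and cross-linking, 13 rose and none fell by edgeR, with 1 lower at an unadjusted p under 0.05 and none lower by DESeq2, and the median was 0.18. Crtap, chosen after its values were seen as the partner that P3h1 needs in its complex, had 48.9 and 51.5 CPM in Dor WT against 71.0 and 72.3 in Dor cKO, a log2 fold change of 0.51 (adjusted p = 3.11e-08). The remaining subunit of that complex, Ppib, also named after its values were seen, was not called (0.04). Serpinh1, the collagen-specific chaperone, rose by 0.31 (SE 0.02), P4hb, the beta subunit shared by the prolyl 4-hydroxylases, by 0.09 (SE 0.02), and the cross-linking enzyme gene Lox by 0.17 (SE 0.03). Col1a2 and Col3a1 rose by 0.34 and 0.33 and Col1a1 by 0.20, each with an SE of 0.01.

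Markers of fibroblasts and meninges moved with these genes. All 10 rose, with a median log2 fold change of 0.32, from a summed TPM of 4677 to 4697 in Dor WT to 6007 to 6047 in Dor cKO, and none was at 0. Col1a1, Col1a2 and Col3a1 belong to this list too, so it is not separate from the collagen list. Markers of border macrophages and leukocytes rose in 5 of 8, from 192.4 to 192.6 TPM to 245.3 to 255.9 TPM, and endothelial markers in 3 of 8, while 1 mural marker of 8 rose and 2 fell. The part of these cells in the higher collagen hydroxylase counts was not tested.

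**Figure D4:**
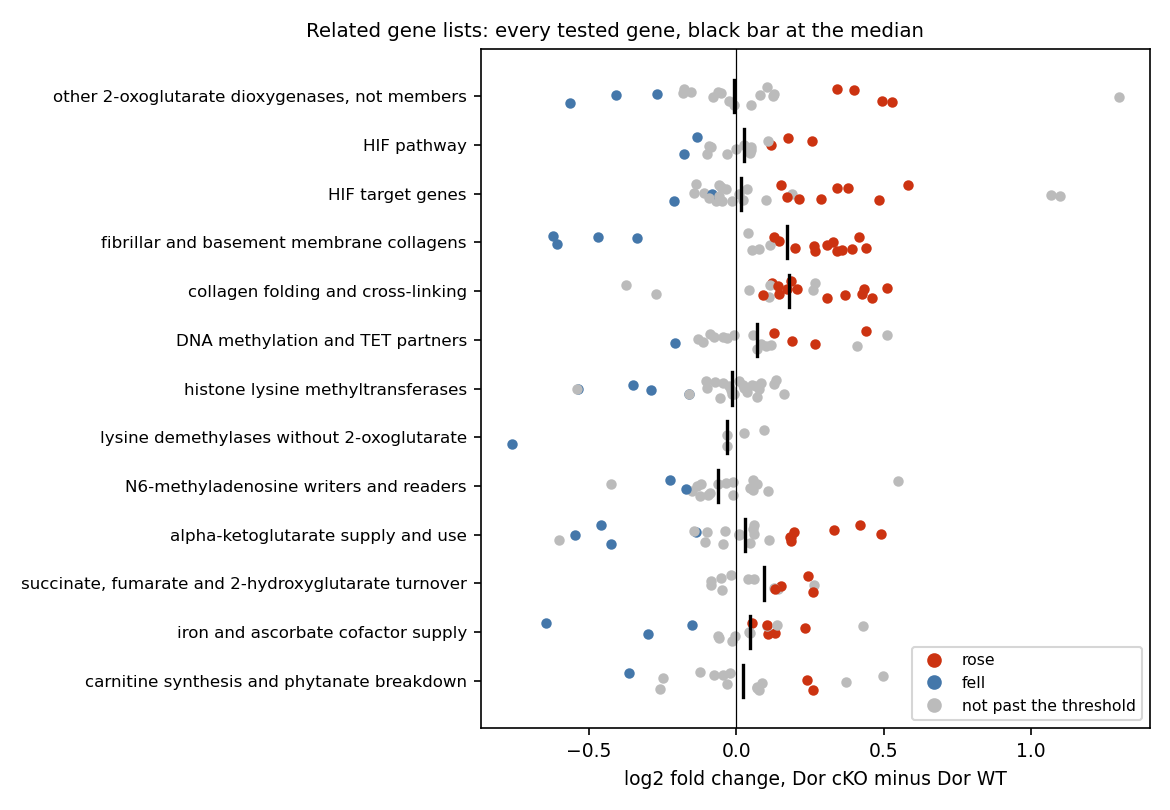
Log2 fold changes, Dor cKO minus Dor WT, on the horizontal axis, of every tested gene in 13 lists of related genes, 1 row of points a list, coloured by call, with a black bar at the median. Collagen and collagen folding genes have medians of 0.17 and 0.18, and the histone methyltransferase and methyladenosine lists have medians of -0.02 and -0.06.

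The JmjC histone demethylases, 14 genes whose Jumonji domain removes methyl groups from histone lysines, held 1 rise and 1 fall. That is 14.29% of the class, beside 27.7% of all tested genes. Phf2 (chromosome 13, 48801750 to 48871119), which demethylates a repressive mark at promoters, had 80.4 and 75.4 CPM in Dor WT against 87.3 and 87.6 in Dor cKO, a log2 fold change of 0.17 (SE 0.05, adjusted p = 9.99e-03). Kdm6b (chromosome 11, 69398508 to 69413675), which removes the mark laid down by Polycomb, had 71.2 and 69.3 CPM in Dor WT against 60.5 and 62.1 in Dor cKO. The 2 groups of Kdm6b were apart, and it fell by 0.20 (SE 0.05, adjusted p = 6.35e-03), 1.15-fold lower. Phf2 was called in 8 and Kdm6b in 11 of the 16 alternative settings, with adjusted p values of 3.00e-03 to 0.597 and 4.57e-04 to 0.501. Phf2 was not called without Dor WT replicate 2 (adjusted p = 0.132), without Dor cKO replicate 1 (adjusted p = 0.0538) or without Dor cKO replicate 2 (adjusted p = 0.0635), and Kdm6b not without Dor cKO replicate 1 (adjusted p = 0.0729).

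Kdm4a, which removes methyl groups at repressive marks, had 92.6 and 89.8 CPM in Dor WT against 83.5 and 86.6 in Dor cKO, a log2 fold change of -0.10 that was not called (adjusted p = 0.121). With a trend on length and GC content removed it passed as lower (-0.15, adjusted p = 0.0195, in a range up to 0.797 over the alternatives), and Kdm7a passed as higher (0.17, adjusted p = 0.0188, in a range up to 0.947). Of the 12 genes of the class that were not called, 11 had intervals within 1.25-fold, and their log2 fold changes ran from -0.16 for Kdm4c to 0.12 for Phf8, an X-linked gene. Without Dor cKO replicate 2, Kdm4c was at -0.29 and passed (adjusted p = 0.0459, in a range up to 0.817 over the alternatives). The class median was 0.01 and its summed TPM had a ratio of 0.982. Kdm2a, chosen after its values were seen, shows how the 2 scales can part: its CPM values of 88.1, 93.8, 97.3 and 93.1 in Dor WT 1, Dor WT 2, Dor cKO 1 and Dor cKO 2 overlapped between groups, while its mean TPM went from 24.7 to 28.1 as the length RSEM assigned fell from 5781 and 5443 bases to 5052 and 5187.

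Genes for writing histone lysine methylation, which include the non-catalytic subunits Eed and Suz12, rose in none of 27 by edgeR and fell in 4. That stands beside 14.3% of all tested genes higher and 13.4% lower, and the list's median log2 fold change was -0.02. At an unadjusted p under 0.05, 2 of the 27 were higher and 5 lower, and DESeq2 called 0 higher and 4 lower. Nsd1 fell by 0.16 (SE 0.03), Nsd2 by 0.29 (SE 0.04) and Ezh2, the catalytic subunit of Polycomb complex PRC2 whose mark Kdm6b removes, by 0.35 (SE 0.09, adjusted p = 3.73e-03). Ezh2 had 33.7 and 28.1 CPM in Dor WT against 23.1 and 25.1 in Dor cKO. It was lower, as was Kdm6b, though Kdm6b was not called by DESeq2 (adjusted p = 0.0633). Other enzymes of that mark were not compared with them, and the mark itself was not measured. Among demethylases that use flavin rather than alpha-ketoglutarate, and their partners, 1 of 5 fell, the corepressor gene Rcor2, named after its values were seen, which had 12.4 and 14.2 CPM in Dor WT against 7.14 and 8.62 in Dor cKO (log2 fold change -0.76, SE 0.14, adjusted p = 1.21e-04). Kdm1a and Rcor1, the most abundant of the list, were not called, at -0.03 and 0.03.

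None of the 3 TET genes, which oxidise methylcytosine in DNA, was called by edgeR, and the count was 0 at an unadjusted p under 0.05 and 0 by DESeq2. Tet3 had 114 and 112 CPM in Dor WT against 117 and 119 in Dor cKO, a log2 fold change of 0.06 (adjusted p = 0.332). The values of Tet2 and Tet1, 0.04 and -0.07, rested on overlapping libraries. All 3 intervals stayed within 1.25-fold, and the summed TPM of the class had a ratio of 1.02. Tet3 passed the threshold only when a trend on transcript length was removed (log2 fold change 0.13, adjusted p = 0.0140), and its other alternatives reached 0.901. Of 19 genes of DNA methylation and TET partners, 4 rose, among them Mbd3 by 0.13 (SE 0.04) and Cxxc5 by 0.19 (SE 0.06), and Ogt, which glycosylates proteins in complex with TET enzymes, fell by 0.21 (SE 0.04). Shares over all tested genes were 14.3% higher and 13.4% lower.

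The AlkB and FTO demethylases, which act on methylated bases of RNA, were likewise at 0 calls of 3 by edgeR, 0 at an unadjusted p under 0.05 and 0 by DESeq2. Fto had 138 and 129 CPM in Dor WT against 139 and 140 in Dor cKO, a log2 fold change of 0.07 (adjusted p = 0.234). Without Dor WT replicate 1 it passed, at 0.12 and an adjusted p of 0.0435, while other alternatives reached 0.889, so the higher of the Dor WT libraries decided that value. Alkbh5, which demethylates adenosine in mRNA, had a log2 fold change of 0.08 (adjusted p = 0.142). Alkbh1, an enzyme of transfer RNA, had 12.4 and 11.5 CPM in Dor WT against 10.4 and 9.92 in Dor cKO and did not pass (-0.23, SE 0.13, adjusted p = 0.227). Of 19 writers and readers of methyladenosine, none rose by edgeR, at an unadjusted p under 0.05 or by DESeq2, and 2 fell: Hnrnpa2b1 by 0.22 (SE 0.02) and Ythdf3 by 0.17 (SE 0.05). By edgeR, 14.3% of all tested genes were higher and 13.4% lower.

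The JmjC-only hydroxylases carry the same fold but are known for hydroxylating proteins. None of the 4 was called by edgeR, with 0 at an unadjusted p under 0.05 and 0 by DESeq2. Jmjd6, the most abundant, had 20.0 and 22.7 CPM in Dor WT against 21.9 and 21.8 in Dor cKO (log2 fold change 0.03), which overlapped. Riox2, a ribosomal hydroxylase, had 10.8 and 10.7 CPM in Dor WT against 9.34 and 9.20 in Dor cKO (-0.21, SE 0.14, adjusted p = 0.294). Its groups did not overlap, but the change did not pass the test. Of the 4 genes 1 had an interval within 1.25-fold, and the intervals of the rest reached beyond that. All rest on the spread between libraries, which may be technical, so none of the 4 was shown to be unchanged.

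Among the remaining hydroxylases, Asph (chromosome 4, 9448069 to 9669344), which hydroxylates EGF-like domains in the endoplasmic reticulum, had 65.0 and 72.0 CPM in Dor WT against 75.2 and 77.4 in Dor cKO. It passed narrowly, at a log2 fold change of 0.15 (SE 0.05, adjusted p = 0.0394). Asph was called in 7 of 16 alternative settings and not without Dor WT replicate 1 (adjusted p = 0.358). Its adjusted p was 0.0779 when Dor cKO replicate 1 was left out and 0.221 when Dor cKO replicate 2 was, in a range of 3.76e-03 to 0.638 over the alternatives. Phyh, the peroxisomal enzyme of phytanic acid breakdown, had 42.0 and 47.1 CPM in Dor WT against 45.5 and 49.9 in Dor cKO, which overlapped (0.10, adjusted p = 0.350). Ogfod1, a ribosomal prolyl hydroxylase, had a log2 fold change of 0.18 (adjusted p = 0.119). Bbox1, the last enzyme of carnitine synthesis, was barely detected, at 2.01 and 2.90 CPM in Dor WT against 2.05 and 1.93 in Dor cKO, and its value of -0.32 had an SE of 0.32 (adjusted p = 0.521).

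**Figure D5:**
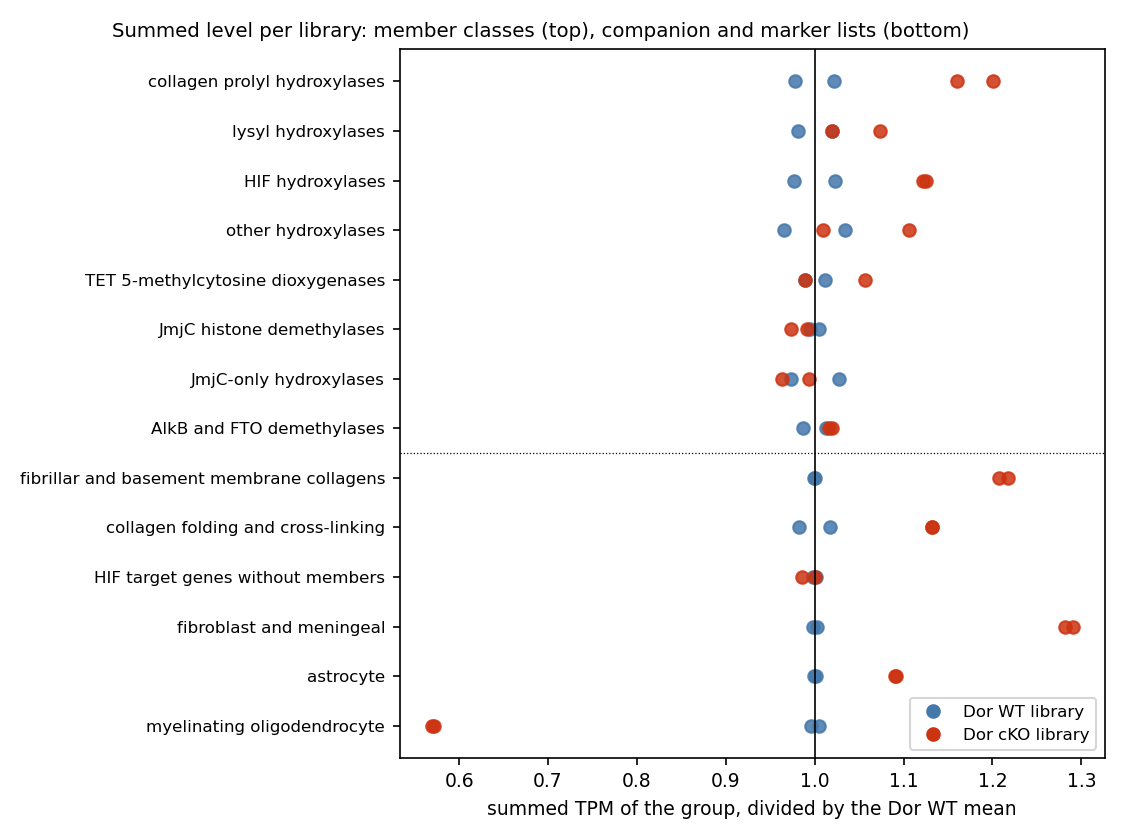
Summed TPM of the 8 classes (above the dotted line) and of related and marker lists (under it) in each library, divided by the mean of the Dor WT libraries, on the horizontal axis, with Dor WT and Dor cKO in separate colours. Collagen prolyl hydroxylases and HIF hydroxylases have mean ratios of 1.18 and 1.12, the TET, JmjC demethylase, AlkB and FTO classes between 0.982 and 1.02, and the myelinating oligodendrocyte markers 0.570.

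Set side by side, the 9 genes of both collagen-modifying classes held 5 rises and no fall by edgeR at a median log2 fold change of 0.21, beside 14.3% of all tested genes higher and 13.4% lower, while the 20 TET, JmjC demethylase, AlkB and FTO genes held 1 rise and 1 fall at a median of 0.04. Summed TPM of those 20 genes was 430.1 and 425.3 in Dor WT against 421.0 and 429.1 in Dor cKO, so that these libraries overlapped. Of the 9 collagen-modifying genes DESeq2 called 3 higher and 0 lower, limma on log2(TPM + 1) 1 and 0, and the assumed coefficient of variation of 0.1 left 0 and 0, while 1 was lower at an unadjusted p under 0.05. The difference between the classes was not tested.

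Of 21 tested genes in a list of other dioxygenases, 4 rose and 3 fell, beside 14.3% of all tested genes higher and 13.4% lower. The list's median log2 fold change was -0.01. That list was drawn up for alpha-ketoglutarate-dependent enzymes but also named Hgd and Hpd, which do not use alpha-ketoglutarate. Hr, a nuclear receptor corepressor with a Jumonji domain, had 68.1 and 64.5 CPM in Dor WT against 44.5 and 44.9 in Dor cKO, and its fall by 0.57 (SE 0.06, adjusted p = 1.08e-08) exceeded in size every change among the 41 genes. Alkbh8, which modifies the wobble position of transfer RNA, fell by 0.41 (SE 0.08), and P4htm, a transmembrane prolyl hydroxylase, by 0.27 (SE 0.10). Kdm5d and Uty, Y-linked demethylase genes named after their values were seen, had 9.33 and 11.9 CPM and 8.12 and 9.58 CPM in Dor WT against 16.4 and 14.4 CPM and 12.1 and 12.9 CPM in Dor cKO. They rose by 0.53 and 0.50 while Xist was lower, which sets the sex chromosome genes of the groups apart. Every library held Xist and these Y-linked genes, and a different mix of sexes cannot be told apart from genotype. The part of sex in the other members was not tested. Their X-linked counterparts Kdm5c and Kdm6a, also named after their values were seen, were not called, at -0.05 and -0.16.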

How the data were processed

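RNA of mouse optic nerves was measured in 2 Dor WT and 2 Dor cKO libraries. Per the labels, these were stranded poly(A) libraries read as pairs, and the build was GRCm38 and the tools were RSEM 1.3.1, STAR 2.7.9a and Trimmomatic 0.36, per the submitters' processing notes. Per the file headers, the deposited tables give an expected count, a TPM value and a length for each gene. An expected count shares out reads that fit several genes and need not be whole. The TPM values deposited by the authors are scaled per length and to the same total in each library. Neither the annotation release nor any use of strand in counting is given in the sources used here. Whether overlapping genes on opposite strands were counted apart is therefore unknown. GENCODE M21 gave symbols and coordinates and matched 55141 of 55401 identifiers, and upstream sequences from RefSeq on GRCm38.p6.

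Expected counts were rounded. Genes were filtered with filterByExpr (minimum count 10, minimum total 15), scaled by TMM and compared with the robust quasi-likelihood test of edgeR 4.0.16 (R 4.3.3), with Benjamini-Hochberg adjustment over 16751 genes. The threshold was 0.05. Fold changes are log2 values, Dor cKO minus Dor WT. The common biological coefficient of variation was 0.03477. The main edgeR fit, but none of the alternatives, was tested on simulated data with known changes. TPM served for levels and sums. The members and lists (8 classes, 13 related lists and 14 marker lists) were chosen with earlier results of these data known. Named genes were every called member, the most abundant member of each class, the 4 members not called with the largest fold changes, and of each related list up to 3 called genes of highest CPM, or the 2 most abundant where fewer than 2 were called; others are said to be named after their values were seen, or give the range of a class, a call that changed with a setting, or a member's neighbours in its class. Alternatives were DESeq2 1.42.0, RLE and total count scaling, no filter or 1 CPM in 2 libraries, limma 3.58.1 on log2(TPM + 1) and log2(TPM + 0.1), no robust option, a coefficient of variation of 0.1, a replicate block, a length trend removed, and each library left out. Removing a trend on length and GC content together, and the HIF hydroxylase sum without Egln3, were added after seeing the data.

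Marker lists not described with a result gave the following counts by edgeR, beside 14.3% of all tested genes higher and 13.4% lower. Oligodendrocyte precursor markers fell in 3 of 6, microglia markers rose in 3 and fell in 1 of 7, and neuron markers rose in 1 and fell in 1 of 8. Erythroid markers fell in 3 of 6, and cartilage and bone markers rose in 1 and fell in 1 of 7. Pituitary and hypothalamus markers rose in 1 and fell in 9 of 12. Their median log2 fold change was -2.15, in a range of -11.39 to 0.40. Their summed TPM was 1944 and 2053 in Dor WT against 1718 and 1792 in Dor cKO. Whether the groups held unequal amounts of such tissue, and its part in other fold changes, was not tested. Of 6 photoreceptor markers 1 was tested and not called, with Pde6b and Crx at 0 in all libraries, and of 6 muscle markers 3 were tested and 0 called.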

Additional observations from a re-analysis of the deposited data

How the results depend on the processing

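Of the 41 genes, 8 rose and 1 fell; DESeq2 gave 4 and 0, limma on log2(TPM + 1) and on log2(TPM + 0.1) each gave 2 and 0, and a coefficient of variation of 0.1 gave 1 and 0. Total count scaling gave 7 and 2, the length and GC trend removed 7 and 2, and leaving out a library 5 to 7 and 0 to 2. Over all genes, 2399 rose and 2248 fell; DESeq2 gave 1549 and 1392, limma on log2(TPM + 1) 690 and 738, on log2(TPM + 0.1) 684 and 738, and the coefficient of variation of 0.1 gave 703 and 891. Left-out libraries gave 1782 to 2184 higher and 1670 to 2073 lower. No called member changed direction in any of these.

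Same-numbered libraries deviated together at a correlation of 0.135 over 12320 genes, but nothing in the labels says that the numbers pair them. The replicate block gave 8 higher and 1 lower among the 41 genes, and 2562 and 2409 over all genes. Without its most abundant gene the summed TPM ratio was 0.998 for AlkB and FTO, 1.17 for HIF hydroxylases (1.04 without Egln3, added after seeing the data), 0.919 for JmjC-only and 0.979 for lysyl hydroxylases. With total count scaling 2 DNA methylation genes and 2 carnitine and phytanate genes fell in place of 1 each, and 2 genes of succinate and fumarate turnover rose in place of 4. The cause of these shifts was not tested. Posterior mean TPM moved no class ratio beyond the spread between libraries. Precision was lowest for Bbox1, P3h2, Kdm8 and Riox1, at low counts, whose SEs were 0.17 or more.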

Other observations

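Genes that supply the co-substrate and cofactors of these enzymes moved in both directions. So did all tested genes, of which 14.3% were higher and 13.4% lower. Of 24 tested genes for making and using alpha-ketoglutarate, 7 rose and 4 fell, with a median log2 fold change of 0.03. Slc13a3, a dicarboxylate transporter, had 216 and 207 CPM in Dor WT against 294 and 300 in Dor cKO and rose by 0.49 (SE 0.03), and Ogdh, a subunit of the complex that consumes alpha-ketoglutarate, rose by 0.19 (SE 0.03). Psat1, a transaminase of serine synthesis that forms alpha-ketoglutarate, had 288 and 286 CPM in Dor WT against 204 and 213 in Dor cKO and fell by 0.46 (SE 0.03). Of 14 genes that turn over succinate, fumarate and related acids, 4 rose and none fell by edgeR, with 1 lower at an unadjusted p under 0.05 and 0 lower by DESeq2. Sdha, the flavoprotein of succinate dehydrogenase, rose by 0.15 (SE 0.03), Sdhd by 0.13 (SE 0.05) and Suclg2 by 0.26 (SE 0.05).

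Of 17 tested genes for iron and ascorbate supply, 5 rose and 3 fell, beside 14.3% of all tested genes higher and 13.4% lower. The ferritin genes Fth1 and Ftl1 rose by 0.11 and 0.05 (SE 0.02 each) and the ascorbate transporter gene Slc23a2 by 0.23 (SE 0.02). Tfrc, the transferrin receptor gene, named after its values were seen, fell by 0.65 (SE 0.06, adjusted p = 6.57e-10). Of 16 genes around carnitine synthesis and phytanate breakdown, 2 rose and 1 fell: Cpt1a, which loads fatty acids onto carnitine, rose by 0.24 (SE 0.04), Cpt2 by 0.26 (SE 0.08), and Phyhipl, a relative of a Phyh-binding protein, fell by 0.37 (SE 0.03).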
